A study of Homo sapiens with 24 samples.

Results

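The nuclear-encoded respiratory chain genes were taken as all protein-coding RefSeq genes whose symbols begin with NDUFA, NDUFB, NDUFC, NDUFS, NDUFV, SDH, UQCR, COX4, COX5, COX6, COX7, COX8 or ATP5, and 100 of 20056 protein-coding genes with a position met this rule. They encode subunits of complexes I to IV and of ATP synthase, the inhibitor ATP5IF1, the assembly factors of complexes I and II, and the readthrough loci ATP5MF-PTCD1 and NDUFC2-KCTD14, whose spans take in neighbouring genes of other function. N6-methyladenosine (m6A) was mapped in poly(A) RNA of HepG2 cells, a human hepatocellular line in wide use, by sequencing fragments pulled down with an anti-m6A antibody. Lentiviral cassettes, kept under puromycin selection, made 4 stable lines that expressed EGFP as a control, METTL14 (WT), METTL14 (R298P) or METTL14 (D312A), with 3 biological replicates each and 24 samples of pulled-down and input RNA. METTL14 is the partner of METTL3 in the enzyme that writes m6A, and the labels name no deletion of the cells' own METTL14, so the lines carry the added protein beside whatever the cells make.

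The respiratory chain passes electrons from NADH and succinate to oxygen through complexes I to IV and uses the resulting proton gradient to drive ATP synthase. Liver cells depend on it for the ATP that gluconeogenesis and urea synthesis consume. Its nuclear-encoded subunits are mostly small proteins made from compact genes, whereas assembly factors help to build a complex without staying in it. In mRNA, m6A lies mainly near stop codons and in long exons, and antibodies to m6A also recognise the related methylated adenosine found next to the cap at the 5′ end of many mRNAs.

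Fewer of these genes than of protein-coding genes at large carried a summit, the position of highest enrichment of a called m6A peak. Of the 100 genes, 38 held a summit in at least 1 of the 12 libraries and 62 held none. Over all protein-coding genes 51.3% held one. Only 16 held a summit in at least 6 libraries, against 31.5% of all protein-coding genes, and 7 held one in all 12, against 17.0%. The lists held from 8669 to 15373 summits per library and 155075 in all, of which 290 lay in these spans. Of the 290, 224 lay in no other protein-coding span, and 34 of the 100 genes held such a summit. The 7 genes with a summit in all 12 libraries include both readthrough loci, whose summits all lay in the span of another protein-coding gene too. Read depth of the lists is unknown, so an absent summit cannot be read as an absent mark, and low RNA levels and low methylation cannot be told apart.

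The start of ATP5MC1, a gene for the membrane-ring subunit c of ATP synthase, held a summit in every library. Its summits lay at positions 48892832 to 48892865 of chromosome 17 (hg38), 45 to 78 nt downstream of the annotated start of transcription. Sequence from RefSeq (GRCh38.p14) was at hand for windows that end 50 bases after an annotated start, and 82 of the 100 genes had such a window. The 4 stretches below are shown because a summit of each gene fell inside the transcribed part of its window. Each is 30 bases, 5′ to 3′ on the gene's strand, and capitals mark any of the 6 words searched (GGAC with its variants AGAC or TGAC, and GAAC with its variants AAAC or TAAC), which hold the adenosine and cytidine of the usual m6A motif.
ATP5MC1: gctgagcgctgAGACcaagggctaaagctg
NDUFC1: acaacggaggcagaggagctgaAGACtcca
NDUFB8: atggcggtggccagggccggggtcttggga
NDUFAF1: gggcggaaggtacactataggctcggggag
The ATP5MC1 stretch (chromosome 17, 48892807 to 48892836, plus strand) holds bases 21 to 50 of the transcript and takes in the summits of EGFP 2, WT 1 and R298P 1, while those of the other 9 libraries lay just beyond it. An lncRNA, LOC105371814, is also annotated there. The NDUFC1 stretch (chromosome 4, 139302438 to 139302467, minus strand) holds bases 11 to 40. The summit of D312A 2 lay at base 11, its first base, and that of R298P 2 at base 42, just past its end. The NDUFB8 stretch (chromosome 10, 100529822 to 100529851, minus strand) and the NDUFAF1 stretch (chromosome 15, 41402447 to 41402476, minus strand) hold bases 21 to 50 of transcripts from 1 of the annotated starts. The ATP5MC1 and NDUFC1 stretches each contain AGAC, and the other two contain none of the 6 words. Over 22199 windows of protein-coding genes, bases 21 to 50 held at least 1 of these words on the transcribed strand in 36.3% and on either strand in 61.5%, with overlapping words counted once.

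**Figure D1:**
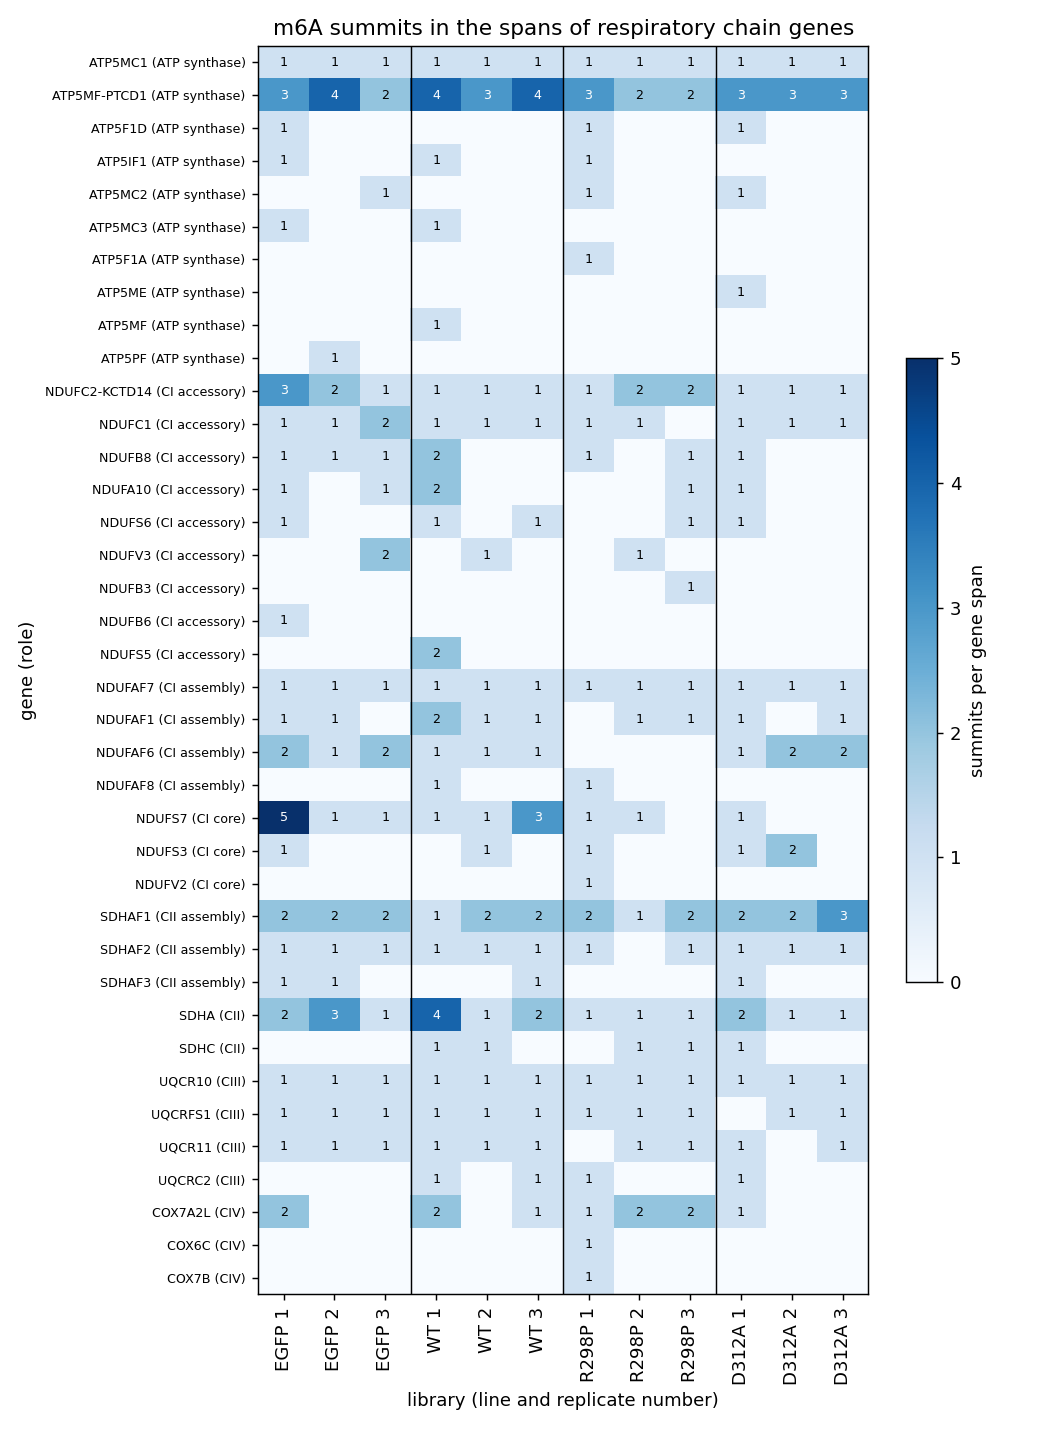
Number of m6A summits in the span of each of the 38 respiratory chain genes with a summit (rows, with their complex, CI to CIV, or ATP synthase) in each of the 12 libraries (columns, by line and replicate number); darker cells hold more summits and empty cells none. ATP5MC1, NDUFAF7, SDHA, SDHAF1, UQCR10 and both readthrough loci are filled in all 12 columns, and the NDUFAF6 row is empty in the 3 R298P columns.

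Complex I oxidises NADH, and 3 of its 7 core subunits, 9 of its 31 accessory subunits and 4 of its 8 assembly factors held a summit. Both the 9 and the 31 include the readthrough locus NDUFC2-KCTD14. Among core subunits, NDUFS7, which carries an iron-sulfur cluster, held 5, 1 and 1 summits in EGFP replicates 1, 2 and 3, 1, 1 and 3 in WT, 1, 1 and 0 in R298P, and 1, 0 and 0 in D312A. Its line means of 2.33 ± 2.31, 1.67 ± 1.15, 0.667 ± 0.577 and 0.333 ± 0.577 (SD, n = 3 each, in this order) overlapped between lines, and EGFP replicate 1 alone held 5 of its 15 summits. D312A minus the other 9 libraries was -1.22 summits in NDUFS7 (exact permutation test, two-sided, p = 0.241). NDUFS3, a core subunit of the peripheral arm, held 6 summits in 5 libraries, 4 of which lay 61 to 64 nt from its start. NDUFV2, next to the flavin site, held 1 summit, in R298P replicate 1. NDUFV1, which binds the flavin, held none.

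Among accessory subunits of complex I, NDUFC1 was the most regular, with a summit in 11 libraries and none in R298P replicate 3. Its main region (chromosome 4, 139300665 to 139300782) was present in 3 EGFP, 3 WT, 1 R298P and 2 D312A libraries, while R298P 2 and D312A 2 held their summit at the start instead, where the span of NAA15 overlaps. NDUFB8 held a summit in 7 libraries. In 6 of these it lay 45 to 53 nt from the nearest annotated start, and the summits of that region ranked low within their lists, between the 0.14th and the 8.49th percentile of summit values. NDUFA10 and NDUFS6 held summits in 5 libraries each, NDUFV3 in 3, and NDUFB3, NDUFB6 and NDUFS5 in 1 each. The readthrough locus NDUFC2-KCTD14 held a summit in all 12 libraries, and all 17 of its summits lay in the span of KCTD14, which encodes no respiratory chain protein. NDUFC2 itself held none.

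The assembly factors of complex I showed both a site shared by all libraries and the only difference between lines that met the calling rule. NDUFAF7, a mitochondrial methyltransferase, held 1 summit in each of the 12 libraries, within 67 nt on chromosome 2 (37248310 to 37248376). NDUFAF1, a part of the complex that builds the membrane arm, held a summit in 9 libraries. Its line means were 0.667 ± 0.577 in EGFP, R298P and D312A and 1.33 ± 0.577 in WT (SD, n = 3 each). WT minus the other 9 libraries was 0.667 summits (exact permutation test, two-sided, p = 0.241), and single libraries of WT overlapped with those of every other line. NDUFAF8 held 1 summit in each of WT 1 and R298P 1, near its start. NDUFAF2, NDUFAF3, NDUFAF4 and NDUFAF5 held none.

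NDUFAF6, which is needed for the early assembly of complex I, held 2, 1 and 2 summits in EGFP replicates 1, 2 and 3, 1 in each WT replicate, 1, 2 and 2 in D312A, and 0 in each R298P replicate. Every library of the other lines thus held at least 1 summit and no R298P library did. It was the only one of the genes examined here with summits in 3 of 3 libraries of one line and 0 of 3 of another. Against WT it was 1 of 35 such genes with a summit in the 6 libraries, where 1.26% of 9294 protein-coding genes were lost and 0.291% gained in this way. Against EGFP it was again 1 of 35, with a background of 1.07% lost and 0.333% gained. The comparisons with WT and with EGFP share the R298P libraries. Set against the average of all libraries outside the line, R298P differed by -1.44 summits in NDUFAF6 (exact permutation test over 220 choices of 3 libraries, two-sided, p = 0.00455, the smallest it can give, Benjamini-Hochberg adjusted p = 1 over 7812 genes). Of the 26 respiratory chain genes that passed the filter of a summit in at least 3 libraries, this 1 had an exact p under 0.05, and 3.46% of all 7812 genes did, so the count is near the background. In EGFP, WT and D312A 0 of the 26 had an exact p under 0.05, against 2.46%, 2.28% and 2.37% of all genes, and no gene of the 7812 passed after adjustment in any line.

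The NDUFAF6 span (chromosome 8, 94895799 to 95118496) overlaps that of TP53INP1, a stress-response gene, and the lists carry no strand. A region at 94930595 to 94930626, in both spans, was present in 2 EGFP, 1 WT, 3 D312A and 0 R298P libraries. A region at 94988880 to 94988887, in NDUFAF6 alone, was present in 2 EGFP, 2 WT, 1 D312A and 0 R298P libraries. With summits in no other protein-coding span, the difference was -0.556 (exact permutation test, two-sided, p = 0.205), and with each list cut to 8669 summits, the length of the shortest, -0.778 (exact permutation test, p = 0.232). The call was absent under both settings and with summit values of at least 10.

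**Figure D2:**
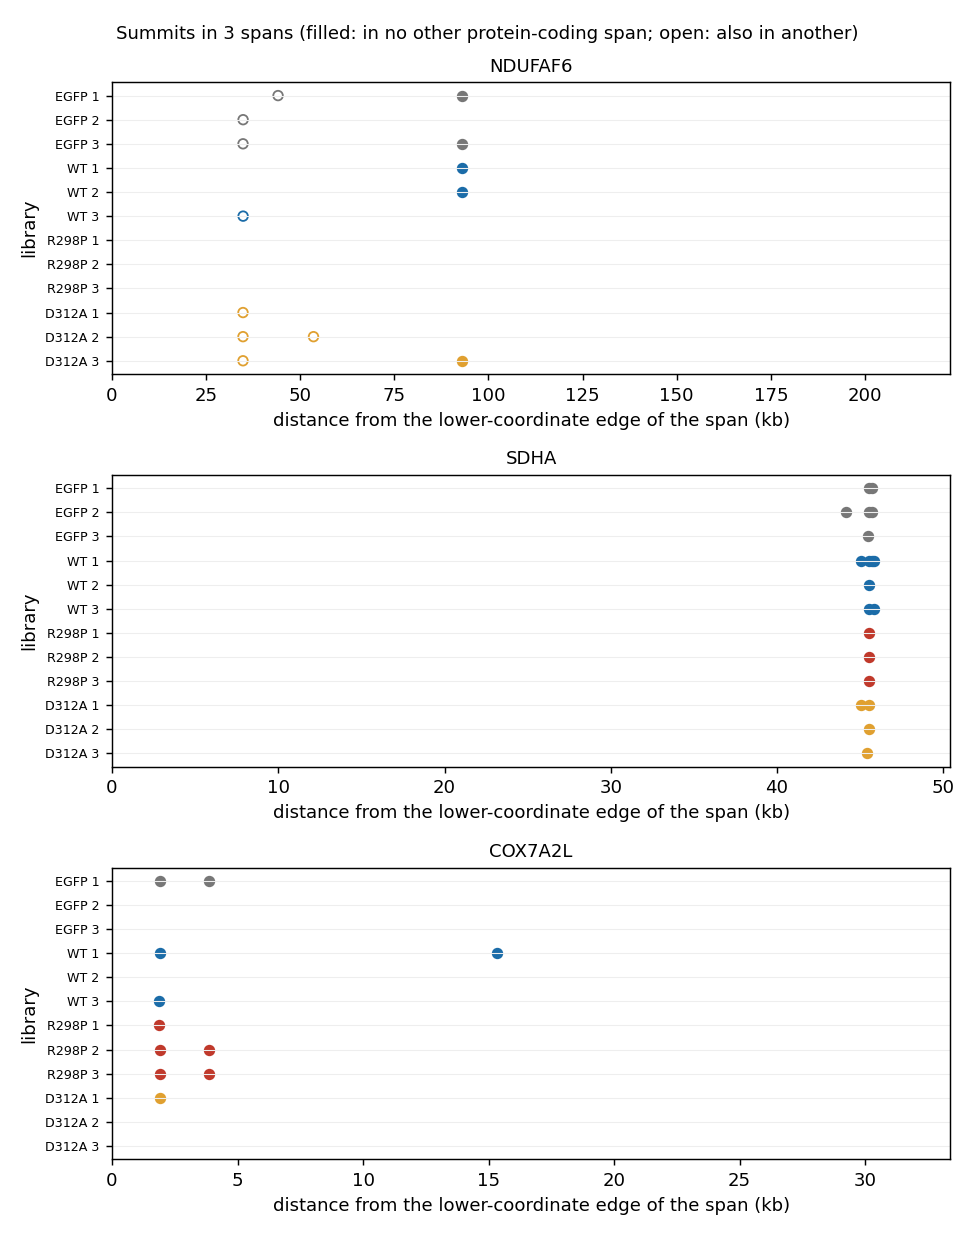
Summits in the spans of NDUFAF6, SDHA and COX7A2L by library (rows) against the distance from the lower-coordinate edge of the span in kb; each point is 1 summit, filled where no other protein-coding span holds it and open where another does. NDUFAF6 has no point in the 3 R298P rows, SDHA has a point near the same place in all 12 rows, and COX7A2L has points in all 3 R298P rows and in 4 of the other 9.

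Complex II feeds electrons from succinate into the chain, and 2 of its 4 subunits and 3 of its 4 assembly factors held a summit. SDHA, the flavoprotein that oxidises succinate, held 2, 3 and 1 summits in EGFP replicates 1, 2 and 3, 4, 1 and 2 in WT, 1 in each R298P replicate, and 2, 1 and 1 in D312A. All 12 libraries shared a region on chromosome 5 (263753 to 263879) at 90.3% of the span from the 5′ end. The means were 2.0 ± 1.0 for EGFP, 2.33 ± 1.53 for WT, 1.0 ± 0 for the R298P line and 1.33 ± 0.577 for D312A (SD, n = 3 each), and R298P overlapped with every other line (exact permutation test against the other 9 libraries, two-sided, p = 0.327). SDHC, a membrane anchor, held a summit in 5 libraries, none of them EGFP, and SDHB and SDHD held none.

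Of the complex II assembly factors, 2 held a summit in at least 11 libraries. SDHAF1, which helps to insert iron-sulfur clusters, has a span of only 1125 nt and held 23 summits over the 12 libraries. Its means were 2.0 ± 0 in EGFP, 1.67 ± 0.577 for both WT and R298P, and 2.33 ± 0.577 in D312A (SD, n = 3 each), and the lines overlapped. One region (chromosome 19, 35995685 to 35995786) was present in all 12 libraries and the other (35996077 to 35996281) in 10. SDHAF2, which attaches flavin to SDHA, held 1 summit 519 nt from the 3′ edge of its span in 11 libraries and none in R298P replicate 2. SDHAF2 summits ranked high, with a median at the 86.8th percentile of their lists. SDHAF3 held a summit in 4 libraries, and SDHAF4 in none.

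Complex III passes electrons to cytochrome c, and 4 of its 9 genes held a summit, 3 of them at a fixed place. UQCRFS1, the Rieske iron-sulfur protein, held 1 summit within 3 nt on chromosome 19 (29207549 to 29207551) in 11 libraries and none in D312A replicate 1. These summits lay between the 68.6th and the 98.5th percentile of their lists. UQCR10, a small subunit, held 1 in all 12 libraries (chromosome 22, 29769847 to 29769863), at a median percentile of only 11.8. UQCR11, another small subunit, held 1 in 10 libraries (chromosome 19, 1597994 to 1598003) and none in R298P 1 and D312A 2. UQCRC2, a core protein, held a summit in 4 libraries. UQCRB, UQCRC1, UQCRH, UQCRHL and UQCRQ held none.

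Complex IV, which reduces oxygen, held the fewest, with summits in 3 of 17 genes. COX7A2L, which joins complexes into supercomplexes, held 2, 0 and 0 summits in EGFP replicates 1, 2 and 3, 2, 0 and 1 in WT, 1, 2 and 2 in R298P, and 1, 0 and 0 in D312A. The R298P libraries alone all held one, but the values overlapped with those of EGFP and WT, and the difference of 1.0 summit from the other 9 libraries did not pass (exact permutation test, two-sided, p = 0.145). Its main region (chromosome 2, 42337441 to 42337466) lay at 94.3% of the span from the 5′ end. COX6C and COX7B each held 1 summit, in R298P replicate 1. The 6 tissue-restricted forms COX4I2, COX6A2, COX6B2, COX7A1, COX7B2 and COX8C held none, and neither did the widely expressed COX4I1, COX5A, COX5B, COX6A1, COX6B1, COX7A2, COX7C and COX8A.

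Of the 20 ATP synthase genes, 10 held a summit, but only ATP5MC1 and the readthrough locus ATP5MF-PTCD1 did so in at least 6 libraries. The summits of ATP5MC1 were weak within their lists, with a median at the 8.09th percentile, although all 12 libraries held one. ATP5MC2 and ATP5MC3, which encode the same mature subunit c, held summits in 3 and 2 libraries. ATP5MF-PTCD1 held 36 summits, all of them also in the span of another protein-coding gene. Of these, 1, in WT replicate 1, lay in ATP5MF and the others in PTCD1, BUD31 or CPSF4. ATP5IF1, the inhibitor of the enzyme, and ATP5F1D, a subunit of its central stalk, each held a summit in 3 libraries. ATP5F1A, the alpha subunit, ATP5ME, ATP5MF and ATP5PF held a summit in 1 library each. The remaining 10 genes, among them ATP5F1B for the catalytic beta subunit, held none.

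By role, assembly factors stood beside the other genes with 7 of 12 against 31 of 88 in at least 1 library, and 5 of 12 against 11 of 88 in at least 6. The 5 include NDUFAF6, which held a summit in no other protein-coding span in 5 libraries only. The 11 include both readthrough loci, which held such a summit in 0 libraries. The spans of assembly factors were longer, with a median of 24055 nt against 9589 nt. Span length was set beside the share of genes with a summit, since a longer span has more room for one. In spans of 5 to 20 kb, 18 of 52 respiratory chain genes held a summit (34.6%), against 25 of 37 genes for mitochondrial ribosomal proteins (67.6%), 27 of 43 for cytosolic ribosomal proteins (62.8%) and 45.5% of all protein-coding genes. Below 5 kb the share was 7 of 23 (30.4%), against 77.3%, 65.9% and 25.5% in this order, and at 20 kb or more 13 of 25 (52.0%), against 55.6%, 85.7% and 61.8%. Expression levels, which also set whether a peak can be called, were not analysed here.

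**Figure D3:**
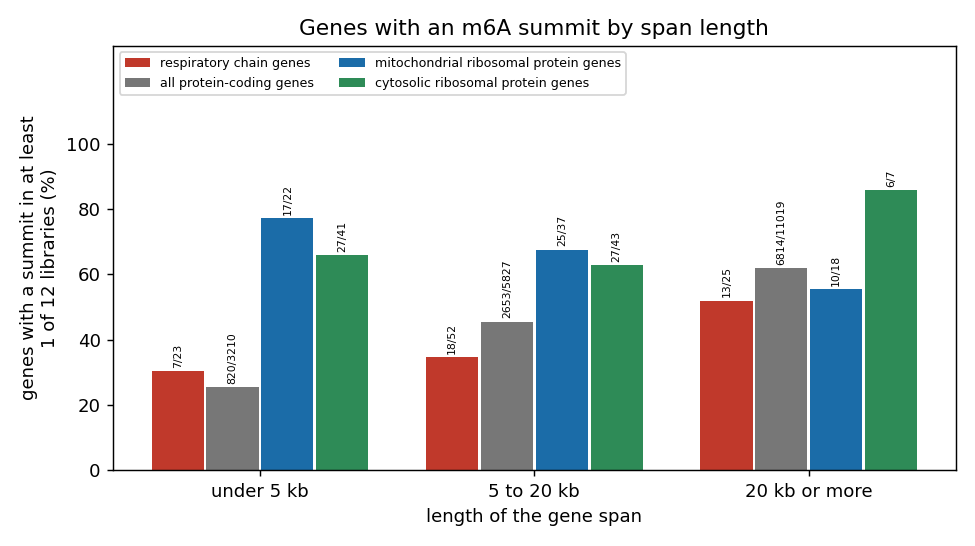
Share of genes with a summit in at least 1 of the 12 libraries (y axis, percent) by length of the gene span (x axis), for respiratory chain genes, all protein-coding genes and 2 sets of ribosomal protein genes; the numbers over the bars are genes with a summit and genes in the class. In the classes under 5 kb and 5 to 20 kb the respiratory chain bars, at 30.4% and 34.6%, stand below those of both ribosomal sets. Against all protein-coding genes, at 25.5% and 45.5%, the respiratory chain bar stands higher under 5 kb and lower at 5 to 20 kb.

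Further genes of the pathway, from further lists, were counted in the same way, with no test of the lists. Over all protein-coding genes 51.3% held a summit in at least 1 library, 31.5% in at least 6 and 17.0% in all 12. Cytochrome c and cytochrome c1 (CYCS and CYC1) held 0 summits. Of 23 complex IV assembly factors, 14 held a summit, 12 in at least 6 libraries and 9 in all 12, among them SCO1 and SCO2, which deliver copper, and COX15, which makes heme A. Of further assembly factors, 7 of 9 for complex I, 6 of 9 for complex III and 3 of 4 for ATP synthase held one. Of 14 regulators of mitochondrial biogenesis, 13 held a summit, and PPARGC1A, PPRC1, GABPB1, TFB1M and TWNK did in all 12 libraries. Of 14 tricarboxylic acid cycle enzymes 6 did. The genes named in this paragraph were chosen after their values were seen. Of cell type markers, 8 of 8 for hepatocytes and HepG2, 0 of 5 for fibroblasts, 3 of 5 for blood and 2 of 4 for endothelium held a summit, beside 51.3% of all protein-coding genes. A summit is not a level of expression, so these counts do not check the cell type.

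Along the genes, respiratory chain summits lay, as a description, nearer the 5′ end than those of all genes. Of the 228 summits in spans of known strand, 18.9% lay in the first 10% of the span and 28.5% in the last 10%, against 12.1% and 38.4% of 124821 summits over all protein-coding genes of known strand. The median position was 73.1% of the span from the 5′ end, against 81.2%. The 228 summits include those of NDUFC2-KCTD14 that lie in KCTD14. For the 206 in no other protein-coding span, 18.9% lay in the first 10% and 24.3% in the last 10%, with a median position of 71.5%. From 50 nt before to 200 nt after an annotated start lay 37 summits (16.2%), from 11 genes, against 6.16% over all genes. This comparison was not matched for span length, whose median was 10552.5 nt for respiratory chain genes and 24092.5 nt for all protein-coding genes. ATP5MC1 gave 12 of these 37 and NDUFB8 gave 6, and the others came from NDUFS3 (4), ATP5IF1 and UQCRC2 (3 each), NDUFAF1, NDUFAF8 and NDUFC1 (2 each) and ATP5ME, COX7B and NDUFV2 (1 each). All but those of NDUFC1 lay 45 to 96 nt from the start. Summits near a start ranked low, with a median at the 12.8th percentile of their lists, against 41.8 for all respiratory chain summits, which include them.

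**Figure D4:**
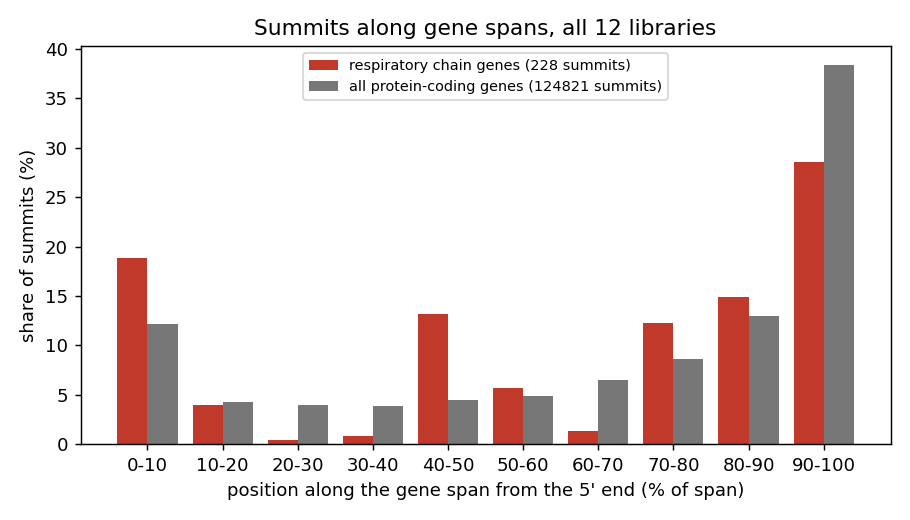
Share of summits (y axis, percent) in each 10% of the gene span from the 5′ end (x axis), for 228 summits in respiratory chain genes and 124821 in all protein-coding genes of known strand, over all 12 libraries. The first 10% holds 18.9% of respiratory chain summits against 12.1% over all genes, and the last 10% 28.5% against 38.4%.

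Replicate 1 stood apart from replicates 2 and 3 in all 4 lines, and the names of the deposited lists also set it apart. Per 1000 summits of a list, the replicate 1 libraries of EGFP, WT, R298P and D312A held 2.34, 2.37, 2.174 and 2.27 in the respiratory chain, in this order, and between 1.46 and 1.96 in the other 8 libraries. On average replicate 1 exceeded replicates 2 and 3 by 0.636 per 1000 (SD 0.08 over 4 lines). Of the 38 genes with a summit, 12 held one only in replicate 1 libraries (31.6%), whereas 6.29% of 10287 protein-coding genes with a summit did. These 12 were ATP5F1A, ATP5F1D, ATP5IF1, ATP5MC3, ATP5ME, ATP5MF, COX6C, COX7B, NDUFAF8, NDUFB6, NDUFS5 and NDUFV2. The 18 summits of all but ATP5MF ranked low, with a median at the 17.9th percentile. The summit of ATP5MF, which also lies in the span of ATP5MF-PTCD1, was at the 46.5th percentile. Near annotated starts lay 21.4% of the respiratory chain summits in replicate 1 and 12.3% in replicates 2 and 3, against 6.52% and 5.96% over all genes. With summit values of at least 10 the excess of replicate 1 was 0.246 per 1000 (SD 0.243 over 4 lines), with 3 of 4 lines still highest in replicate 1, and what differed between replicates was not tested.

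Comparisons of the lines asked whether added METTL14, or its substitutions, changed m6A in these genes. Per 1000 summits the respiratory chain held 1.94 ± 0.351 in EGFP, 1.87 ± 0.432 for WT, 1.75 ± 0.365 for the R298P line and 1.89 ± 0.408 for D312A (SD, n = 3 each), so all lines overlapped. R298P minus WT was -0.116 per 1000, with -0.191 in replicate 1 and -0.0777 in replicates 2 and 3. R298P minus EGFP was -0.184, with -0.168 and -0.193 in the same parts. WT minus EGFP was -0.0688 (0.0236 and -0.115), D312A minus EGFP was -0.042 (-0.0758 and -0.0251), and D312A minus WT was 0.0267 (-0.0994 and 0.0898). All of these were smaller than the SD between the 3 libraries of a line, to which the replicate 1 libraries, highest in every line, contribute. Within replicate numbers the spread was smaller: R298P minus WT was below 0 in 3 of 3 numbers (SD 0.0802), R298P minus EGFP in 3 of 3 (SD 0.02), and WT minus EGFP in 2 of 3 (SD 0.0861). Numbers are treated as pairing the libraries for R298P and WT alone, and no test was run on these sums. The number of genes with a summit in at least 1 library came to 27 for EGFP, 28 for WT, 30 for R298P and 25 for D312A, and without replicate 1 it was 20, 21, 20 and 14. The matching shares of all protein-coding genes were 41.7%, 41.7%, 39.9% and 37.9%. A summit in all 3 libraries of the line was held by 14 genes for EGFP, 14 for WT, 9 for R298P and 10 for D312A, so R298P had the highest of the 4 counts by the first rule and the lowest by the second. Over all protein-coding genes the second rule gave 5021, 5216, 4555 and 4090 genes in the same order.

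**Figure D5:**
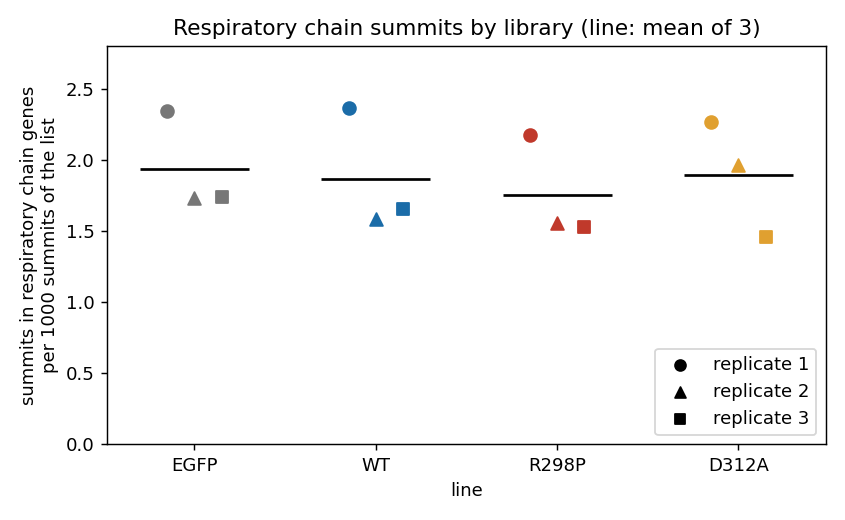
Summits in respiratory chain genes per 1000 summits of each list (y axis) by line (x axis); each point is 1 of 12 libraries, its shape gives the replicate number, and the bar is the mean of 3. Replicate 1 is the highest point in each line, between 2.174 and 2.37, and the 4 means lie between 1.75 and 1.94.

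Summits of all lists merged within 100 nt gave 73 regions in these spans, of which 6 were present in all 12 libraries (8.22%, against 9.91% of all 34313 regions) and 28 in 1 library (38.4%, against 35.8%). Calls of gained or lost required a region in 3 of 3 libraries of one line and in 0 of 3 of another. In R298P against WT 0 of 58 regions were called, against a background of 0.711% gained and 1.72% lost. In R298P against EGFP it was 0 of 60 (background 0.787% gained, 1.56% lost), in WT against EGFP 0 of 61 (0.408% and 0.255%), in D312A against EGFP 0 of 54 (0.168% and 1.17%) and in D312A against WT 0 of 51 (0.116% and 1.32%). With 3 libraries against 3 a region cannot reach an exact p under 0.1. R298P against D312A, a comparison added after the data were seen, gave 1 lost region of 48, the one shared by NDUFAF6 and TP53INP1 (background 0.366% lost, 1.47% gained), and the NDUFAF6 span as a whole, 1 of 33 genes (0.303% lost, 0.899% gained). No gene was called in WT against EGFP (background 0.288% gained, 0.203% lost), D312A against EGFP (0.0438%, 1.28%) or D312A against WT (0.0221%, 1.25%).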

How the data were processed

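m6A-seq gave 12 pulled-down libraries, grouped by sample title, and 12 input libraries. Each deposited list gives 1-base summit positions on hg38. Its summit values, at least 5.0 in every list, are taken as −log10 p or q values from the authors' peak caller; the names of the peaks in each list show that it was called on 1 library. Per the submitters' processing notes, MACS2 2.1.2, STAR 2.7.9a and other tools were used, with roles and settings not stated. The table of input expression was not used, because 0 of its Ensembl identifiers could be paired with a symbol here; its 18 value columns of single libraries could not be matched to sample labels. The planned expression tests were not run.

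Summits were counted in RefSeq spans (GRCh38.p14) and merged into regions within 100 nt, with Python 3.11.15, pandas 2.3.3 and NumPy 2.4.6. Spans do not tell exons from introns. Strand came from the RefSeq start windows, whose orientation was checked on 2897 overlapping pairs. Summit values were used only to rank or filter within a list. Summit number per gene was tested by exact permutation over 220 choices of 3 of 12 libraries, with Benjamini-Hochberg adjustment, after the code was tested on simulated data. The choices exchanged libraries across replicate numbers, without a replicate block. No sum over the genes was tested. The genes, lists and tests were chosen with earlier results of these data known. Genes named are those with a summit in at least 6 libraries or a call between lines; others are named after their values were seen, and some results are not reported here. Deviations of summit numbers from line means correlated between equal replicate numbers at 0.501, 0.192 and 0.234 for R298P and WT, which are treated as paired; in the other comparisons at least 1 number correlated below 0.1.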

Additional observations from a re-analysis of the deposited data

How the results depend on the processing

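The differences between lines in summits per 1000 moved by less than the replicate SD under the alternatives run. That SD exceeded every difference itself, so this does not show that they were stable. The alternatives were summit values of at least 10, lists of equal length, summits in no other protein-coding span, each replicate left out, and replicate 1 or replicates 2 and 3 alone. With summit values of at least 10, R298P minus WT went from -0.116 to -0.284 and R298P minus EGFP from -0.184 to -0.399. WT minus EGFP (-0.115) and the D312A difference from EGFP (-0.114) also grew in size, while D312A minus WT shrank to 0.000809. With summits in no other protein-coding span, R298P minus WT was -0.0954 and R298P minus EGFP -0.061. The sign of each difference changed with some replicate of 1 line left out (for R298P minus WT and R298P minus EGFP only without replicate 1 of WT or EGFP, which sets lines with and without a replicate 1 library side by side), and those of WT minus EGFP and D312A minus WT also with summits in no other protein-coding span. With the replicate block, R298P minus WT was -0.116 (SD 0.0802, 3 of 3 pairs below 0) and R298P minus EGFP -0.184 (SD 0.02, 3 of 3 below 0); the block leaves every mean as it was by construction, and both differences exceeded the SD within pairs, though not the SD between libraries of a line. The other 3 differences stayed under their SD within pairs. Genes with a summit numbered 16 for EGFP, 16 for WT, 17 for R298P and 19 for D312A with lists of equal length, where D312A goes from the lowest of the 4 counts to the highest, and 17 in R298P with summit values of at least 10. With 1 replicate left out they ranged from 20 to 26 for EGFP, 21 to 27 for WT, 20 to 29 for R298P and 14 to 25 for D312A. The NDUFAF6 calls of R298P against WT, EGFP and D312A, for the gene and for the region, fell to 0 with summit values of at least 10, with lists of equal length and with summits in no other protein-coding span, and the count of genes with an exact p under 0.05 fell to 0 with lists of equal length and with summits in no other protein-coding span. Merging within 50 or 200 nt moved no count of regions. Leaving out an R298P replicate gave p = 0.0182 for NDUFAF6 (exact permutation test), the smallest the test can then give. That value was fixed in advance, since every R298P library held 0 summits and every other library at least 1. Shorter and filtered lists hold fewer summits, which lowers counts of genes by construction. The alternatives for input expression were not run. The adjusted test could not pass for 1 gene among 7812 with a smallest p of 0.00455. The settings for the single-span calls and for the excess of replicate 1 were chosen after the data were seen. That excess was 0.389 per 1000 (SD 0.202 over 4 lines) with lists of equal length and 0.713 with summits in no other protein-coding span.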

Other observations

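Over all protein-coding genes of known strand, R298P libraries held a larger share of their summits from 50 nt before to 200 nt after an annotated start than any other library. The share was 8.25%, 8.49% and 7.72% in R298P replicates 1, 2 and 3, and between 4.24% and 7.01% in the other 9 libraries, a difference of 2.59 percentage points of the means (exact permutation test over 220 choices, two-sided, p = 0.00455, the smallest it can give, adjusted p = 0.0182 over the 4 lines). The choices exchanged libraries across replicate numbers, so this p takes no account of pairing by number. These limits were set after summits near starts were seen. In respiratory chain genes 8 of 66 summits lay there in EGFP, 9 of 61 in WT, 10 of 54 in R298P and 10 of 47 in D312A. The shares of single R298P libraries overlapped with those of every other line. Those of EGFP (at most 13.8%) lay below those of D312A (at least 15.4%), a difference that was not tested. These shares rest on few summits, with 4 of 29, 2 of 19 and 2 of 18 in EGFP replicates 1, 2 and 3. In D312A they were 5 of 22, 3 of 12 and 2 of 13, and ATP5MC1 gave 1 of those near a start in each library. Over all protein-coding genes of known strand, the EGFP shares (4.24% to 5.57%) also lay below those of D312A (6.03% to 7.01%).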
